A study of Mus musculus with 35 samples.

Results

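The TAM family was followed by name in microglia sorted from mouse spinal cord: the receptors Axl, Mertk and Tyro3 and the ligands Gas6 and Pros1. These are 5 of the 45706 genes in the deposited table, and all 5 were found in it. TAM receptors are receptor tyrosine kinases that do not bind dying cells directly. Gas6 and protein S, the product of Pros1, act as bridges, with one end holding phosphatidylserine on the surface of a dying cell and the other binding the receptor. In mouse macrophages and microglia, Mertk is known as a receptor of resting cells and Axl as one that is induced in inflammation, while Tyro3 is known mainly from neurons.

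The mice were rNLS8 animals, in which the neuronal NEFH promoter drives a doxycycline-regulated human TDP-43 transgene, and wild-type littermates, on a mixed C57BL/6J x C3HeJ F1 background. All were raised on doxycycline (DOX) until 8 to 12 weeks of age, so that removal of DOX turned the transgene on in rNLS8 mice. Early disease libraries came from rNLS8 mice after 2 weeks without DOX (n = 7), late disease libraries after 6 weeks without DOX (n = 7), and recovery libraries after 6 weeks without DOX and 1 week of return to it (n = 7). The control group (n = 14) joined 6 rNLS8 mice kept on DOX for 6 weeks and 8 wild-type mice. Of the wild-type mice, 4 had 2 weeks without DOX, 1 had 6 weeks, and 3 had 6 weeks without and 1 week back on it. The transgene is thus driven in neurons and not in the sorted cells, and whole spinal cords were used.

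Total expected counts per library, in units of 1e+06, ran from 13.9 to 20.4. All 10 microglial markers were detected in each group, and their summed level had medians of 55698 CPM, counts per 1e+06 library counts after scaling, in early disease, 48483 in late disease, 56164 in recovery and 63126 in controls. Late disease library 6 had the lowest sum, 29541 CPM. In late disease 6 of these 10 markers were called lower than in controls and 0 higher, against 6.39% and 9.01% of all genes. Their median log2 change was -0.41. Neutrophil and monocyte markers were higher in recovery, with sums of 10 genes each of 790 to 7721 CPM and 62.1 to 576 CPM, against 455 to 853 CPM and 4.03 to 25.6 CPM in controls. The highest of both was recovery library 3. The monocyte marker sum was 29.0 to 142 CPM in late disease, also wholly above the controls, with the highest sum in library 6. Of these markers 2 of 7 tested were called higher, and the median log2 change was 0.20. The monocyte markers Ly6c2, Chil3, F10 and Clec4e had a median of 0 in late disease. The Date entry of the deposited design table split the groups unevenly. Recovery libraries had a date of their own (0803), 9 of 14 controls had another (0810), and late and early disease shared dates 1019 and 1102 with the other 5 controls and date 1130 with none. Recovery and date therefore cannot be told apart.

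On the mm10 build, Axl (ENSMUSG00000002602.14) lies at chr7:25757273-25788705 on the minus strand and Mertk (ENSMUSG00000014361.5) at chr2:128698956-128802894 on the plus strand. Tyro3 (ENSMUSG00000027298.15) lies at chr2:119797733-119818104 and Pros1 (ENSMUSG00000022912.8) at chr16:62854307-62929346, both on the plus strand. Gas6 (ENSMUSG00000031451.5) lies at chr8:13465374-13494490 on the minus strand. The libraries do not mark the strand, so reads of a gene and of an overlapping partner on the other strand cannot be told apart. The partner of Gas6, Tmem255b, had 0 counts in every library. The antisense partner of Mertk, Gm14011, had at most 28 counts, against 9756 or more for Mertk.

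The receptors are paralogs, and the shared stretches of their coding sequence are shown because they set how far reads could be exchanged between them. Axl and Mertk were identical at 63.0% of aligned coding bases, Axl and Tyro3 at 61.3%, Mertk and Tyro3 at 61.6%, and Gas6 and Pros1 at 61.2%. The longest identical run was 14 bases in each receptor pair and 12 bases in the ligand pair. In the lines below the capitals mark that run, with 8 coding bases of each gene on either side. The stretch printed for the run of Axl and Mertk, flanking bases included, spans an exon junction in both genes. Coordinates on mm10 are therefore given for the other stretches only.
Axl, run shared with Mertk: aggtcgctGTGAAGACCATGAAaattgcca
Mertk, run shared with Axl: aggtggcaGTGAAGACCATGAAgttggaca
Axl, run shared with Tyro3, chr7:25773367-25773396, minus strand: cggctgggGATGGGCCCTGGAGccttcctg
Tyro3, run shared with Axl, chr2:119809491-119809520, plus strand: caattggtGATGGGCCCTGGAGtcagccac
Mertk, run shared with Tyro3, chr2:128794446-128794475, plus strand: cttttggcGTGACCATGTGGGAaataacaa
Tyro3, run shared with Mertk, chr2:119813167-119813196, plus strand: ccttcgggGTGACCATGTGGGAgatcatga
Gas6, run shared with Pros1, chr8:13478326-13478353, minus strand: agaatgggGGCTGCAGCCAGgtctgcca
Pros1, run shared with Gas6, chr16:62900583-62900610, plus strand: tcaatggaGGCTGCAGCCAGatttgtga
No window of 50 bases from the transcript of any of the 5 genes occurred in a transcript of another gene (0 of 4216 windows for Axl and 0 of 4253 for Mertk).

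Axl was the TAM gene that passed the test. Its level was about 6 times that of controls in late disease and between 4 and 5 times in recovery, while Mertk, Gas6 and Pros1 passed it in no comparison and Tyro3 was at or near 0. In late disease the lowest, median and highest Axl values were 210.4, 366 and 562 CPM, against 11.5, 67.6 and 136 CPM in controls. Every one of the 7 late disease libraries lay above the highest control. The fitted log2 change was 2.59 with a standard error (SE) of 0.32, a 6.00-fold rise (adjusted p = 2.15e-06, edgeR quasi-likelihood F test with Benjamini-Hochberg adjustment). Of the 13501 genes tested, 15.4% were called in this comparison, 9.01% higher, and 0.281% had late disease values wholly above the controls. Axl was 10th of these genes by adjusted p, and 79 of the 1217 genes called higher had a larger log2 change. With only the controls of dates shared with early or late disease, the late disease log2 change of Axl was 1.87, as given below. In sorted bulk samples, a change in the cells collected and a change in RNA per cell cannot be told apart.

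**Figure D1:**
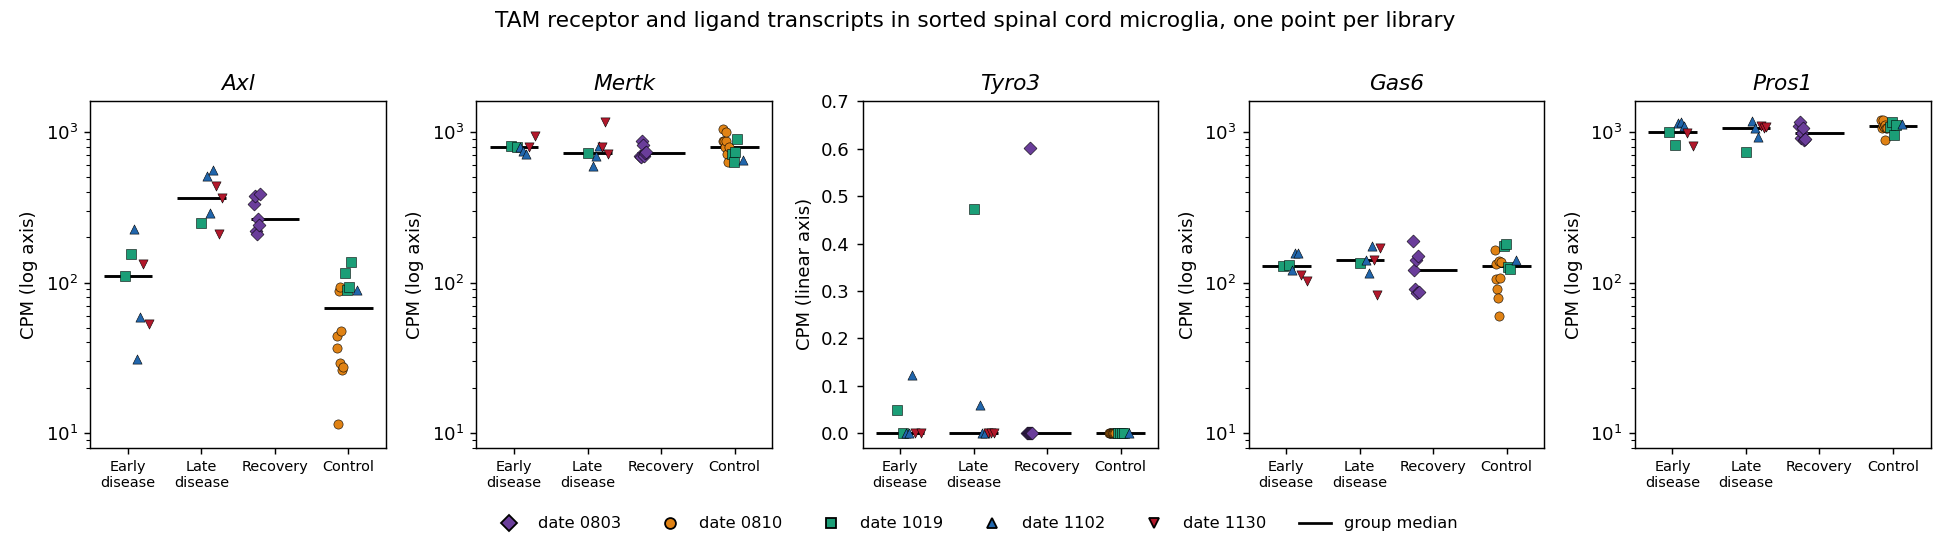
CPM of the 5 TAM genes in early disease, late disease, recovery and control libraries (log axes, but a linear axis for Tyro3), 1 point per library, coloured and shaped by the Date entry, with lines at group medians. Axl in the 14 late disease and recovery libraries lies between 208 and 562 CPM, above the control range of 11.5 to 136 CPM, while Mertk, Gas6 and Pros1 overlap between groups.

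In early disease Axl ran from 31.1 to 226 CPM with a median of 109.8 CPM, against 11.5 to 136 CPM with a median of 67.6 CPM in controls. Of 7 early disease libraries, 2 lay above the highest control, and 4 above the control median. The log2 difference was 0.69 (SE 0.32, 95% interval 0.06 to 1.32), which did not pass the test over all genes (edgeR adjusted p = 0.371). In that comparison 0.00741% of genes were called, which is 1 gene, with 1703 at an unadjusted p under 0.05 and 154 called by DESeq2.

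Late disease exceeded early disease, with 6 of 7 late disease libraries above the highest early disease library and 7 of 7 above the early disease median. The log2 change was 1.89 (SE 0.40, edgeR adjusted p = 0.0189), where 0.741% of genes were called, 0.6% higher, and 0.37% had every late disease library above every early disease library. The call was lost without early disease library 5 (log2 change 1.73) or without library 6, with an edgeR adjusted p of up to 0.0694. With the Date entry as a term and only early and late disease libraries in the fit, the log2 change was 2.05 (edgeR adjusted p = 0.0569). In a date fit with all libraries kept, chosen after seeing the data, it was 2.01 (edgeR adjusted p = 0.00589).

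After 1 week back on DOX, Axl had a lowest, median and highest value of 208, 263 and 389 CPM, against 11.5, 67.6 and 136 CPM in controls. All 7 recovery libraries lay above the highest control, as did 0.43% of all genes. The log2 change was 2.21 (SE 0.32), a 4.62-fold rise (edgeR adjusted p = 2.85e-05), with 3.98% of genes called, 2.87% higher. Against late disease the recovery level differed by -0.38 on the log2 scale (SE 0.38, 95% interval -1.12 to 0.36, edgeR adjusted p = 0.667), where 0.585% of genes were called. The recovery and late disease ranges overlapped, with 2 of 7 recovery libraries above the late disease median.

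**Figure D2:**
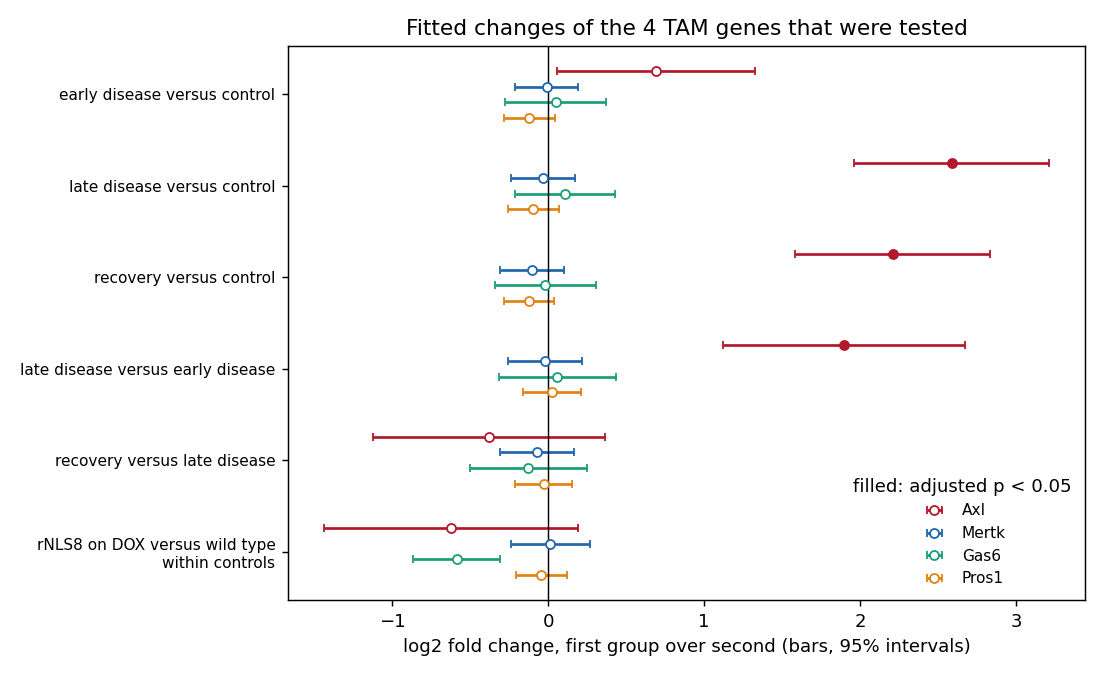
Log2 fold change of Axl, Mertk, Gas6 and Pros1 in 6 comparisons, the first-named group over the second, with 95% intervals as bars and filled points for an adjusted p under 0.05. The 3 filled points are all Axl, at 2.59 for late disease and 2.21 for recovery over control and 1.89 for late over early disease.

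Several measured features moved with the Axl difference. Within date 1019 the mean log2 CPM of Axl was higher in late disease than in controls by 1.21 (1 late disease library and 4 controls), and within date 1102 by 2.29 (3 late disease libraries and 1 control). With controls of these shared dates alone, the late disease change was 1.87 (edgeR adjusted p = 0.00997). With the Date entry as a term and the recovery libraries left out it was 2.24, no longer past the threshold (edgeR adjusted p = 0.0797), in a fit that called 4 genes in all. In a date fit with the recovery libraries kept, chosen after seeing the data, it was 2.17 and past the threshold (edgeR adjusted p = 0.0430), with 18 genes called. Early disease over control was 0.29 and -0.24 within dates 1019 and 1102, and 0.02 with the shared-date controls. The controls of date 0810 were lower in Axl, with a mean of 44.9 ± 28.0 CPM (SD, n = 9), than those of date 1019, at 108.6 ± 21.7 CPM (SD, n = 4).

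TPM (transcripts per 1e+06, a level per length) summed to less than its full total over the table. The missing share was 3.01 to 5.52% in early disease, 2.32 to 4.58% in late disease and 4.09 to 8.86% in recovery. In controls it was 13.9 to 30.8% in date 0810 and 3.76 to 11.4% in the other dates. The share was thus highest in date 0810, which held no disease or recovery library. With this share as a covariate Axl still passed the test, with a log2 change of 2.09 in late disease (edgeR adjusted p = 0.00344) and 1.82 in recovery (edgeR adjusted p = 0.0055). The monocyte marker sum lay above the control range in every late disease and recovery library, and the neutrophil sum was highest in recovery library 3. Without that library the recovery change of Axl was 2.07, the lowest of 21 fits that each left out 1 library. Border macrophage markers summed to 13.5 to 44.0 CPM in late disease and 14.8 to 88.4 CPM in recovery, against 2.80 to 27.1 CPM in controls. One of these 10 markers, Cd209f, had a median of 0 in every group. Sums of 8 oligodendrocyte markers were 2120 to 5270 CPM in late disease and 2070 to 2864 CPM in recovery, against 1181 to 3429 CPM in controls. Sums of 7 astrocyte markers were 182 to 2731 CPM in late disease and 1030 to 2720 CPM in recovery, against 218 to 1826 CPM in controls. The part of these cell types in the Axl difference was not tested.

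**Figure D3:**
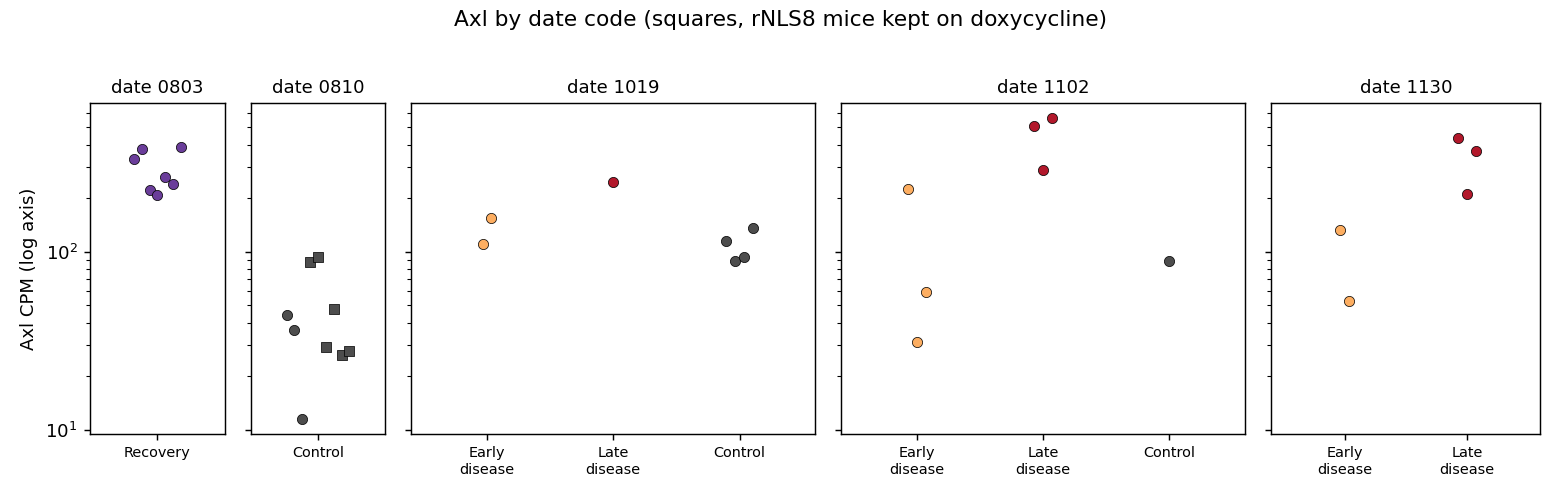
Axl CPM (log axis) by the Date entry of the design table, with early disease, late disease, recovery and control libraries as separate columns in each date, 1 point per library. In the dates that hold them, the late disease libraries (210.4 to 562 CPM) are the highest of the date, and the 9 controls of date 0810 include the lowest value, 11.5 CPM.

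The control group was not uniform for Axl. The 6 rNLS8 controls on DOX ranged from 26.4 to 93.7 CPM (median 38.3), and the 8 wild-type controls from 11.5 to 136 CPM (median 88.7). The ranges overlapped, and the log2 difference of rNLS8 over wild type, -0.62 (SE 0.41), did not pass the test (edgeR adjusted p = 0.765, with 0.00805% of 12425 genes called). All rNLS8 controls had date 0810, and within that date the difference had the other sign, 1.05 (edgeR adjusted p = 0.664). Against the rNLS8 controls alone, Axl rose by 3.00 in late disease and 2.62 in recovery on the log2 scale. Against the wild-type controls alone it rose by 2.33 in late disease and 1.96 in recovery. Against the 3 wild-type controls with the same diet schedule the recovery change was 3.46 (edgeR adjusted p = 0.00273).

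Mertk, the receptor that marks resting microglia and macrophages, was one of the more abundant transcripts and varied little. It ran from 711 to 939 CPM in early disease (median 791), 593 to 1166 CPM in late disease (median 724), 688 to 871 CPM in recovery (median 723) and 629.8 to 1041 CPM in controls (median 797). The ranges of the 4 groups overlapped. The log2 difference from control was -0.01 in early disease (95% interval -0.21 to 0.19), -0.03 in late disease (-0.24 to 0.17) and -0.10 in recovery (-0.31 to 0.10), with edgeR adjusted p values of 0.984, 0.884 and 0.679. Late disease library 6, the library with the lowest microglial marker sum, had the highest Mertk value, and without it the late disease difference was -0.15.

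The promoters of the receptor that passed the test and of the most abundant receptor are printed for comparison, as the 250 bases before the RefSeq transcript start (GRCm38.p6), read 5′ to 3′ on the gene's strand. Capitals mark GC boxes, GGGCGG or its reverse complement.
Axl, chr7:25788734-25788983, minus strand: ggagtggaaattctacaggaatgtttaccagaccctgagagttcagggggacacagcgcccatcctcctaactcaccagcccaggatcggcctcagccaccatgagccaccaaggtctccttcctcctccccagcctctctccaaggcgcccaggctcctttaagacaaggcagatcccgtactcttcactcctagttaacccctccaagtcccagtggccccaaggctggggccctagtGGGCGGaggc
Mertk, chr2:128698665-128698914, plus strand: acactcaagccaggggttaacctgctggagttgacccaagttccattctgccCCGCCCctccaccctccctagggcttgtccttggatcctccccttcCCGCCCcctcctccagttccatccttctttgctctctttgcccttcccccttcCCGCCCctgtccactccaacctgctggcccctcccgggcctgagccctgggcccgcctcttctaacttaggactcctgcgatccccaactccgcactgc
The Axl window held 1 GC box and the Mertk window 3, and 32.7% of 32851 mouse promoters of this length held at least 1. GC content was 60.0% for Axl and 63.6% for Mertk, against a median of 52.4% over all promoters. Searched on both strands, neither window held an interferon-stimulated response element core (in 2.98% of promoters), an AP-1 site (TGANTCA, in 6.75%), an interferon-gamma activated site (TTCNNNGAA, in 7.02%) or a TATA box (TATAAA, in 12.4%). E-boxes (CANNTG, in 66.2%), CCAAT (in 33.8%) and the LXR DR4 element (in 0.0152%) were also at 0 in both, while a short NF-kB consensus was found 1 time in the Axl window and 4 times in the Mertk window, against 45.8% of promoters with at least 1. These letters are a description of the windows and not of binding.

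Tyro3 had any count in 5 of 35 libraries and did not reach the filter on low counts, so it was not tested. Its counts were 2 and 1 in early disease libraries 6 and 1, 9 and 1 in late disease libraries 1 and 2, and 11 in recovery library 7. The other libraries had 0, including all 14 controls, where a count of 0 allows a level of up to 0.157 to 0.216 CPM (3 counts of the library). The 2 highest values, 0.601 CPM in recovery library 7 and 0.473 CPM in late disease library 1, were each from 1 library of 7. Neuronal markers were also near 0, with 6 of them summing to at most 4.31 CPM in any library.

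Levels of different genes were compared in TPM. Median TPM placed Pros1 first in every group and Mertk next. Pros1 had 642, 597, 542 and 558 TPM and Mertk 366, 344, 304 and 321 TPM in early disease, late disease, recovery and control. Axl had medians of 51.0, 174, 104.7 and 25.3 TPM in the same groups, and Gas6 96.2, 107.1, 86.6 and 87.1 TPM. The ranges of Axl and Gas6 overlapped in early disease (15.7 to 107.4 against 78.6 to 125 TPM), late disease (89.3 to 246 against 55.7 to 131 TPM), recovery (90.9 to 166 against 50.6 to 133 TPM) and control (4.67 to 65.5 against 29.1 to 129 TPM). Tyro3 was last, at 0.272 TPM or less.

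Of the summed TPM of the 3 receptors, Axl made up a median of 12.2% in early disease (range 4.48 to 22.7%), 34.4% in late disease (15.8 to 45.9%), 28.0% in recovery (20.5 to 35.8%) and 8.11% in controls (1.37 to 13.9%). Every late disease and recovery library was above the highest control in this share. In late disease Mertk exceeded Axl 1.18 to 5.32 times per length, so Mertk stayed the higher receptor in each library. The corresponding ratios were 3.41 to 21.3 in early disease, 1.80 to 3.89 in recovery and 6.19 to 71.8 in controls.

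**Figure D4:**
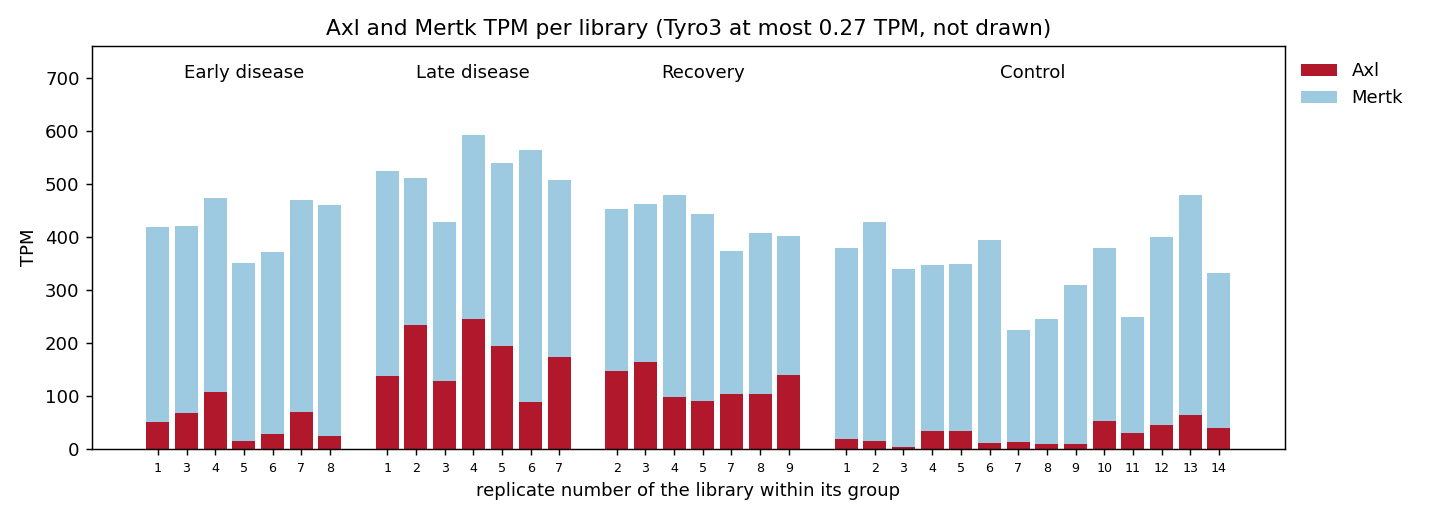
Stacked TPM of Axl (red) and Mertk (blue) in each library, grouped as early disease, late disease, recovery and control, with replicate numbers on the x axis. The Axl part reaches 89.3 to 246 TPM in late disease and 90.9 to 166 TPM in recovery, against 4.67 to 65.5 TPM in controls, and is smaller than the Mertk part in every bar.

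The ligand Pros1 encodes protein S, the plasma anticoagulant that also binds TAM receptors. It ran from 807 to 1175 CPM in early disease (median 996), 737 to 1192 CPM in late disease (median 1061), 882 to 1158 CPM in recovery (median 981) and 883 to 1202 CPM in controls (median 1094). The groups overlapped. The log2 difference from control was -0.12 in early disease (SE 0.08), -0.09 in late disease (SE 0.08) and -0.12 in recovery (SE 0.08), with edgeR adjusted p values of 0.574, 0.486 and 0.475. Where TPM was tested with limma, the early and late disease values were 0.12 and 0.09, and with DESeq2 size factors in place of TMM -0.12 and -0.09.

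Gas6 encodes the ligand that binds all 3 receptors and is the one known to activate Axl. It ran from 102.6 to 157 CPM in early disease (median 129), 82.4 to 174 CPM in late disease (median 140.3), 85.7 to 187 CPM in recovery (median 121.5) and 59.5 to 179 CPM in controls (median 129). The groups overlapped. The log2 difference from control was 0.05 in early disease (SE 0.16), 0.11 in late disease (SE 0.16) and -0.02 in recovery (SE 0.17), with edgeR adjusted p values of 0.942, 0.713 and 0.975. With the Date entry as a term the early and late disease values were -0.19 and -0.14.

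Among controls, Gas6 had a lowest, median and highest value of 59.5, 99.1 and 139.9 CPM in rNLS8 mice on DOX, against 105.1, 137 and 179 CPM in wild-type mice. Of the 6 rNLS8 controls, 1 lay above the wild-type median. The log2 difference was -0.58 (SE 0.14), which missed the threshold over all genes (edgeR adjusted p = 0.386) and passed it in DESeq2 (adjusted p = 0.0396). The difference was -0.54 within date 0810 (edgeR adjusted p = 1.00) and ran between -0.80 and -0.32 over all 10 alternative settings tried.

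Axl was lower in male than in female mice by a fitted log2 difference of -0.54 (SE 0.25), which did not pass the test over all genes (edgeR adjusted p = 0.94). In late disease the 4 libraries from males had 210.4 to 436 CPM and the 3 from females 289 to 562 CPM. All 3 females were of date 1102 and the males of dates 1019 and 1130, so sex and date cannot be told apart within late disease. In controls the 6 libraries from males had 11.5 to 115 CPM and the 8 from females 36.5 to 136 CPM. The interaction of sex with phenotype was called for 0 of the 4 TAM genes tested in any disease group (edgeR), at unadjusted p values of 0.0798 or more. It was called for 0 of all 13501 genes too, so the count is not particular to the members. For Axl the interaction had an SE of 0.66 to 0.67 on the log2 scale, so sizeable sex differences could be missed.

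Among themselves the members moved little together once the mean of each phenotype and date was subtracted. Over 33 libraries from 5 dates, Pearson's r of log2 CPM was 0.33 for Gas6 and Pros1 and -0.22 for Axl and Gas6. The other 4 pairs lay between -0.17 and 0.11. By the same measure the genes most like Axl were Socs2 (r = 0.78), a suppressor of cytokine signalling, Mansc1 (0.74) and Arfgap3 (0.73). Socs2 and Mansc1 had group medians of 4.22 CPM or less. Among those most like Mertk were Sppl2b (0.78) and Cdan1 (0.78). Those most like Gas6 were Capza1 (0.77), Swap70 (0.72) and Zfp420 (0.71). Those most like Pros1 were Tnfsf13b (0.79), which encodes the B cell survival factor BAFF, Capg (0.79) and Syngr2 (0.75).

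By its whole pattern relative to the control mean, Axl was closest to Csf1, which encodes a ligand of the microglial growth factor receptor, with a root mean square difference of 0.64 in log2 CPM over 35 libraries. Cd74, the invariant chain of class II presentation, followed at 0.74 and the chemokine Ccl3 at 0.77. These genes were chosen for this likeness, so their levels are a description. Csf1 had a median of 30.0 CPM in early disease, 113 CPM in late disease, 81.4 CPM in recovery and 20.3 CPM in controls. Cd74 had medians of 61.4, 238, 373 and 66.8 CPM in the same order of groups, highest in recovery. Ccl3 had medians of 26.7, 93.4, 77.5 and 15.2 CPM in the same groups.

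The other genes of the pathway were taken as 6 lists of 93 genes, of which 77 were tested. In late disease 21 were called higher and 6 lower, against 9.01% and 6.39% of all genes, and their median log2 change was 0.11, against 0.02 over all genes tested. In recovery 5 were higher and 2 lower, against 2.87% and 1.1% of all genes, with a median of 0.04 against -0.01 over all genes. In early disease 0 were called by edgeR or DESeq2, with 15 at an unadjusted p under 0.05. On TPM limma called 13 of them, with the median of all genes shifted by 0.22. In late disease 23 of the genes were called with rNLS8 controls alone, 16 with wild-type controls alone and 3 with controls of shared dates. Over all genes these settings called 2292 of 13416, 1009 of 13314 and 191 of 13544. With the Date entry as a term 1 list gene was called, against 4 of 13211 over all genes. With the missing TPM share as a covariate 4 list genes were called, against 252 of 13501. Without late disease library 6, 17 list genes were called, against 788 higher and 588 lower of 13641 over all genes.

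**Figure D5:**
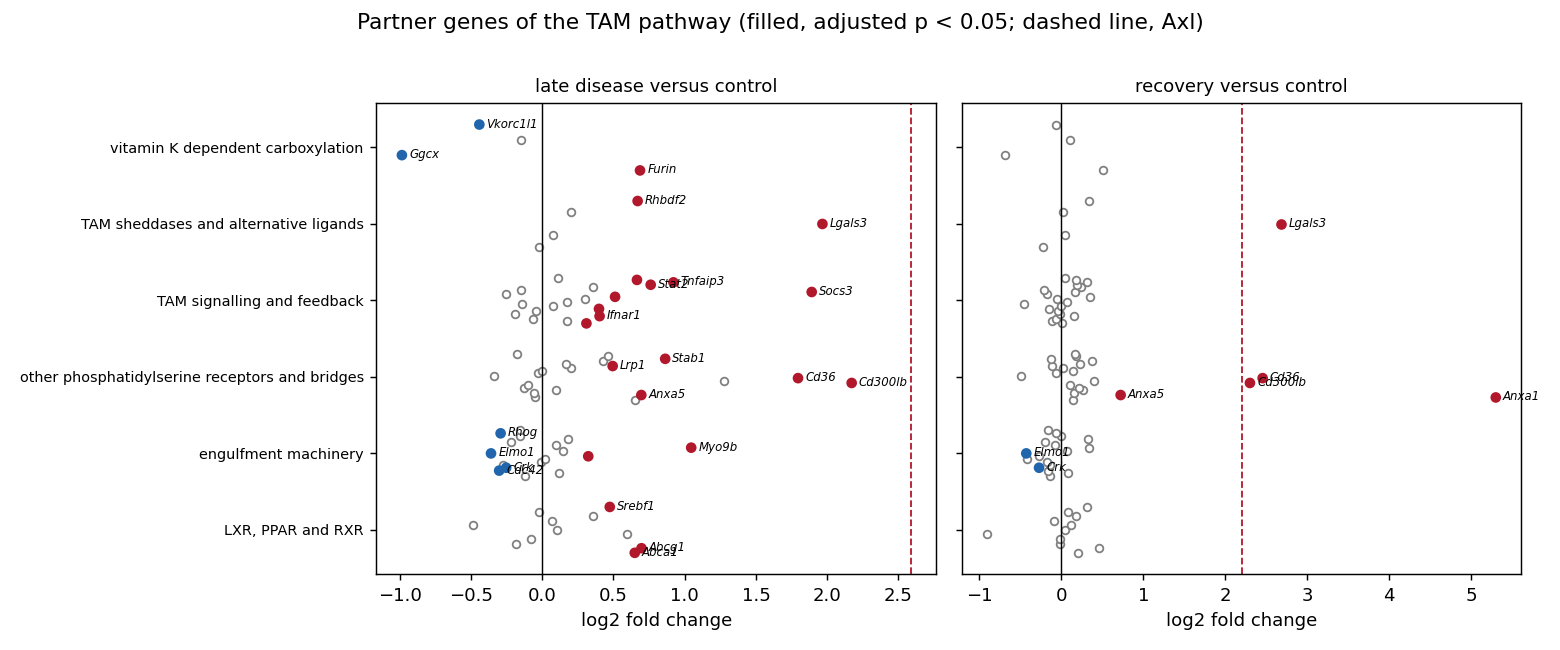
Log2 change of each tested partner gene in late disease over control (left) and recovery over control (right), by list, with filled points for an adjusted p under 0.05 and a dashed line at Axl. Late disease has 21 filled points above 0 and 6 below, recovery has 5 and 2, and Anxa1 in recovery is the farthest from 0.

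The ligands work only after vitamin K dependent carboxylation. Ggcx, the carboxylase, had 24.4 ± 12.4 CPM in late disease (SD, n = 7), against 49.6 ± 13.4 CPM in controls (SD, n = 14), and fell by 0.99 on the log2 scale (SE 0.24, edgeR adjusted p = 0.00577). Vkorc1l1, a vitamin K reductase, fell by 0.44 (edgeR adjusted p = 0.00772). Furin, the protease that removes propeptides, rose by 0.69 (edgeR adjusted p = 0.00883) but not past the threshold without late disease library 6 (0.47). In recovery 0 of these 4 genes tested were called, against 3.98% of all genes, so this is near the background share. Ggcx had 31.5 ± 12.7 CPM in recovery (SD, n = 7).

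Among the sheddases that cut TAM receptors from the surface, their regulators and alternative ligands, 2 of 5 tested genes rose in late disease. Of all genes, 9.01% were called higher there. Lgals3 encodes galectin-3, reported as a ligand of Mertk, and had 12.4 to 43.0 CPM in late disease and 23.3 to 68.9 CPM in recovery, against 2.11 to 13.01 CPM in controls. Its log2 change was 1.97 in late disease and 2.69 in recovery, with edgeR adjusted p values of 9.87e-05 and 1.34e-06. The recovery range lay wholly above the controls. Lgals3 was called in all of the 28 alternative settings tried for these comparisons that left out no single library. Rhbdf2, which encodes a partner of the sheddase ADAM17, rose by 0.67 in late disease (edgeR adjusted p = 0.00254).

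Of 20 signalling and feedback genes tested, 8 rose in late disease and 0 fell, against 9.01% and 6.39% of all genes. TAM receptors are known to act with the interferon receptor, and Ifnar1, one of its chains, had 167 ± 9.60 CPM in late disease (SD, n = 7), against 127 ± 17.9 CPM in controls (SD, n = 14), a log2 change of 0.40 (edgeR adjusted p = 0.000973). Stat2, a transcription factor downstream of that receptor, rose by 0.76 (edgeR adjusted p = 0.00307). Tnfaip3, a brake on NF-kB signalling, rose by 0.92 (edgeR adjusted p = 0.000553). Socs3, a cytokine signalling suppressor, had a log2 change of 1.89, but it rested on 1 library. The values ran from 29.4 to 863 CPM in late disease and 22.1 to 67.5 CPM in controls, and without late disease library 6 the change was 0.15 (edgeR adjusted p = 0.679). In recovery 0 of the 20 were called, against 3.98% of all genes, so this is near the background share.

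Of 20 other phosphatidylserine receptors and bridging proteins tested, 5 rose in late disease and 4 in recovery. Of all genes, 9.01% and 2.87% did so. Anxa5, a phosphatidylserine-binding annexin, had 111 ± 28.0 CPM in late disease and 113 ± 23.7 CPM in recovery (SD, n = 7 each), against 68.4 ± 17.9 CPM in controls (SD, n = 14). Its log2 changes were 0.70 and 0.72 (edgeR adjusted p = 0.00234 and 0.00315). The scavenger receptor gene Cd36 and the receptor gene Cd300lb were low, with at most 21.9 CPM in any late disease or recovery library. Their log2 changes were 1.80 and 2.17 in late disease and 2.46 and 2.30 in recovery (edgeR adjusted p = 0.0404, 0.0280, 0.0146 and 0.0411). The late disease call of Cd36 was lost in 8 of 21 fits that left out 1 library, and the recovery call of Cd300lb likewise in 8 of 21.

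Lrp1, a large endocytic receptor, rose by 0.49 in late disease (edgeR adjusted p = 0.0111) and exceeded early disease by 0.74 (edgeR adjusted p = 0.0201). The scavenger receptor gene Stab1 rose by 0.86 in late disease, and by 0.54, not past the threshold, without library 6. Anxa1, which encodes a pro-resolving annexin abundant in neutrophils, had 4.95 to 155 CPM in recovery, against 0 to 13.9 CPM in controls. Its log2 change was 5.30 (SE 1.09, edgeR adjusted p = 0.00273), and in late disease it was -0.05. The neutrophil markers rose with it, with 9 of 10 called higher in recovery, against 2.87% of all genes. Their sums were 790 to 7721 CPM, against 455 to 853 CPM in controls. Their part in the Anxa1 change was not tested.

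Of 17 engulfment genes tested, 2 rose and 4 fell in late disease, against 9.01% and 6.39% of all genes, so the rises were near the background share. Elmo1, which couples receptors to the actin regulator Rac, had 492 ± 92.2 CPM in late disease and 470 ± 49.5 CPM in recovery (SD, n = 7 each), against 632 ± 81.8 CPM in controls (SD, n = 14). Its log2 changes were -0.36 and -0.43 (edgeR adjusted p = 0.00948 and 0.00591). The small GTPase genes Rhog and Cdc42 fell by 0.29 and 0.30 in late disease (edgeR adjusted p = 0.00385 and 0.0141). These calls were kept in 9 and 8 of 15 alternatives that left out no single library, with changes as small as -0.09 and -0.05. Myo9b, an unconventional myosin, rose by 1.05 (edgeR adjusted p = 0.000282), and its call was kept in 11 of 15. The adaptor gene Crk fell by 0.25 in late disease and 0.27 in recovery (edgeR adjusted p = 0.0261 and 0.0400). Its recovery call was kept in only 9 of 21 fits that left out 1 library, and its late disease call in 20 of 21. On TPM Crk had a change of 0.03 in late disease, where the median of all genes moved by 0.18 to 0.23.

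Nuclear receptors of the LXR, PPAR and RXR classes are known to induce Mertk in mouse macrophages after engulfment. Of 11 genes of this list tested, 0 were called in recovery, against 3.98% of all genes. In late disease 3 rose, against 9.01% of all genes. The cholesterol exporter genes Abca1 and Abcg1 rose by 0.65 and 0.70, and Srebf1, a lipid synthesis regulator, by 0.47 (edgeR adjusted p = 0.0314, 0.0218 and 0.0177). Without late disease library 6 these were 0.49, 0.43 and 0.33, none past the threshold. Mertk itself had a log2 difference of -0.03 in late disease.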

How the data were processed

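RNA of microglia sorted on CD11b and CD45 after a Percoll gradient was made into libraries with the SMART-Seq Ultra Low-input and NexteraXT kits, per the labels' protocols. The authors deposited expected counts, estimated fragments per gene, and TPM values for 35 libraries. RSEM, DESeq2 and mm10 are named per the submitters' processing notes, without versions. No aligner is named. Also deposited was a design table that lists, per library, the count of alignments used, the sex and a Date entry. Of the expected counts, 84.67% were whole within 1e-06, and all were rounded.

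Groups followed the phenotype labels, which do not state separate litters or sorts, so p-values measure the spread between these libraries. The deposited sex and the sex label disagreed in 2 controls. Replicate pairs differed beyond counting noise, with a mean chi-square per gene of at least 19.6, and each library counted once. edgeR 4.0.16 (R 4.3.3) fitted all 35 libraries with TMM scaling, phenotype and sex label, after filterByExpr left 13501 genes, with Benjamini-Hochberg adjustment and calls under 0.05. The same test on the 14 controls used 12425 genes. CPM used TMM library sizes, and 95% intervals assume a normal error. Genes without a symbol held at most 0.146% of counts. Counting limits cover counting error only. On simulated counts with 1 spread for all genes, the late disease test called 62 of 100 genes changed by 1 on the log2 scale. It called 99 of 100 changed by 2, and 6 unchanged genes among the 13168 in that fit. Alternatives were DESeq2 1.42.0, limma 3.58.1 on log2(TPM + 1) and log2(TPM + 0.1), other scaling, filters, covariates, controls and dates, and each library left out. Of the lists, genes called in late disease or recovery were named, up to the 4 of lowest p in each list and comparison, with the 3 genes most like each member by correlation and, for Axl, by root mean square difference. One gene that this rule names is not reported here. The members and lists were chosen with earlier results of these data known. Coordinates are GENCODE vM21's, and promoter sequences RefSeq's, with all 5 members matched by symbol. Protein sequences were not used here.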

Additional observations from a re-analysis of the deposited data

Results flagged for a closer look

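Mertk had 939 CPM in early disease library 8 and 1166 CPM in late disease library 6, each set apart from the other 6 libraries of its group, where the next values were 804 and 806 CPM. Tyro3 had 0.123 CPM in early disease library 6, 0.473 CPM in late disease library 1 and 0.601 CPM in recovery library 7, against next values of 0.0484, 0.0598 and 0 CPM. These 5 libraries stood out by the gap to their nearest neighbour relative to the range of the group. In all, 25 groups of 4 to 10 libraries were examined. For values with a normal spread, chance alone gives about 1 in 20. Tyro3 was at 0 in 30 libraries, so this rate does not hold for that gene. The Tyro3 values rest on 2, 9 and 11 counts.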

How the results depend on the processing

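Axl kept its direction and its call in late disease in 14 of 15 alternatives (1.87 to 3.12) and in recovery in 13 of 13 (1.82 to 3.46), and with any 1 library left out (2.48 to 2.77 and 2.07 to 2.39). The late disease alternatives include the date fit with recovery libraries kept. Both comparisons include the fit without the libraries whose sex records disagree. These fits were added after seeing the data. Fitting the Date entry without recovery libraries left 0 TAM genes called in late disease and 0 in late over early disease, while with recovery libraries kept Axl was called in both (2.17 and 2.01). With any 1 library left out the count of TAM genes called in late over early disease was 0 to 1. Replicate numbers did not pair the libraries, since 2 of 37 same-numbered pairs had correlated deviations over 0.1 (range -0.18 to 0.13). With the replicate number as a block, 1 TAM gene was called in early disease, Axl at 1.28 (edgeR adjusted p = 0.0288). In the same blocked fit Gas6 was 0.15 in recovery, Pros1 -0.018 in late over early disease and 0.0068 in recovery over late disease. DESeq2 called 1 TAM gene within controls, Gas6.

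Of the partner genes, 27 were called in late disease, against 4 with the missing TPM share as a covariate, 16 with wild-type controls, 1 with the Date entry as a term, 3 with controls of shared dates, and 1 with the Date entry and recovery libraries kept, an alternative chosen after seeing the data. Over all genes the counts also fell in these settings, as given below. With 1 library left out the count of partner genes called was 17 to 28. Of 29 named calls, 18 were kept with any 1 library left out.

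The following values changed sign and passed the threshold in no case. With the missing TPM share as a covariate, Gas6 was -0.35 in early and -0.31 in late disease, and Mertk 0.018 in early disease, and within controls Axl was 0.32, Mertk -0.024 and Pros1 0.038. Within the controls of date 0810 Axl was 1.05 and Mertk -0.21. With controls of shared dates Mertk was 0.14 in early and 0.11 in late disease, and Gas6 -0.19 and -0.14. With the Date entry as a term Mertk was 0.12 and 0.068, Gas6 -0.19 and -0.14, and Pros1 in late over early disease -0.029. With recovery libraries kept as well these were 0.12, 0.067, -0.20, -0.13 and -0.010. With wild-type controls Gas6 was -0.16 in early and -0.096 in late disease, and with rNLS8 controls 0.32 in recovery. Without the libraries whose sex records disagree Gas6 was -0.037 in early disease and Pros1 0.021 within controls. With no filter on low counts Mertk was 0.0020 in early disease.

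With limma on log2(TPM + 1) and log2(TPM + 0.1), Mertk was 0.24 and 0.24 in early disease, 0.15 and 0.15 in late disease and -0.20 and -0.20 within controls. Pros1 was 0.12 and 0.12, 0.092 and 0.092, and -0.027 and -0.027 in late over early disease. Gas6 was 0.045 and 0.046 in recovery and -0.029 and -0.030 in late over early disease, and Crk 0.026 and 0.027 in late disease. On these scales the median of all genes moved by 0.22 and 0.26 in early disease, 0.18 and 0.23 in late disease, -0.12 and -0.14 in recovery over late disease, and -0.19 and -0.22 within controls.

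With 1 library left out, signs changed within these ranges: in early disease Mertk -0.054 to 0.021 and Gas6 -0.0086 to 0.097, in late disease Mertk -0.15 to 0.035, in recovery Gas6 -0.12 to 0.062, in late over early disease Mertk -0.14 to 0.046, Gas6 -0.044 to 0.16 and Pros1 -0.026 to 0.095, in recovery over late disease Mertk -0.14 to 0.047 and Pros1 -0.093 to 0.023, and within controls Mertk -0.067 to 0.068 and Pros1 -0.096 to 0.011.

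Over all genes, 2080 were called in late disease, against 252 with the TPM share, 1009 with wild-type controls, 191 with shared dates, and 4 and 18 with the Date entry. In recovery 537 were called, against 862 by DESeq2, 253 with the TPM share, 293 with wild-type controls and 912 with the block. In early disease 1 was called, against 154 by DESeq2, 1390 and 1354 by limma, 735 with rNLS8 controls and 613 with the block. In late over early disease 100 were called, against 361 by DESeq2, 51 without the filter, 153 with the TPM share, 24 with the Date entry and 29 with the block. In recovery over late disease 79 were called, against 360 by DESeq2 and 2 with the block, and within controls 1, against 48 by DESeq2. The causes of these differences were not tested. Among the members only Tyro3 was left untested by the filter on low counts, with at most 11 counts in a library.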
